A study of Rattus norvegicus with 6 samples.

Results

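The insulin-like growth factor (IGF) genes were examined in rat disc cells in primary culture, taken from the fibrous disc that separates the bones of the temporomandibular joint (TMJ), the joint of the jaw. The set was defined by gene symbol, and it was picked for study with earlier results of these data known. It held the ligand genes Igf1 and Igf2, the receptor genes Igf1r and Igf2r, and the binding protein genes Igfbp2, Igfbp3, Igfbp4, Igfbp5, Igfbp6 and Igfbp7. All 10 symbols were found among the 20675 genes of the deposited table.

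Polyadenylated RNA was sequenced from disc cells given GSK101 for 24 h and from disc cells given only its solvent, DMSO, for 24 h. GSK101 opens TRPV4, a cation channel that lets calcium into the cell. There were 3 libraries per group. The sources used here give no strain, sex, age, passage or dose, and do not say whether the replicates came from separate animals or cultures, so the p-values reflect only how these samples vary, part of which may be technical. The question was how the transcripts of disc cells differ once the channel has been activated.

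IGF-I and IGF-II are secreted growth factors that stimulate growth, survival and matrix production in connective tissue, in large part through the receptor tyrosine kinase encoded by Igf1r. The IGF binding proteins hold the ligands outside the cell. They can keep them from the receptor or, once cleaved by proteases or bound to matrix, release them near it. In cartilage and other joint tissue this balance of ligand, binding protein and protease is known to bear on matrix synthesis.

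With GSK101 the transcript of the ligand gene Igf1 rose 1.64-fold, and transcripts of 5 of the 6 binding protein genes fell, by 1.18-fold to 1.85-fold. The largest fall was that of Igfbp3, followed by Igfbp2 and Igfbp7. Igfbp5 and both receptor genes did not pass the test. The test was limma on log2(RPKM + 0.5) over the 12801 genes that reached 0.5 RPKM in 3 or more libraries, with a call at a Benjamini-Hochberg adjusted p under 0.05. RPKM is the number of reads per kilobase of exon length and per 1000000 reads counted to genes. Igf2 stayed below the filter, so 9 members were tested. Of these, 1 was called higher, where 20.1% of all tested genes were, and 5 were called lower, where 11.9% of all tested genes were. Together 6 of 9 were called, against 31.9% of all tested genes. Under 17 alternative settings of the analysis, Igfbp2, Igfbp3 and Igfbp7 kept their calls throughout. The calls of Igf1, Igfbp4 and Igfbp6 were lost in 4, 9 and 1 of the 17. The median log2 fold change was -0.24 over the 9 tested members and 0.03 over all tested genes. For 7 of the 10 members, the untested Igf2 among them, no value of one group lay within the range of the other, against 47.3% of all tested genes.

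**Figure D1:**
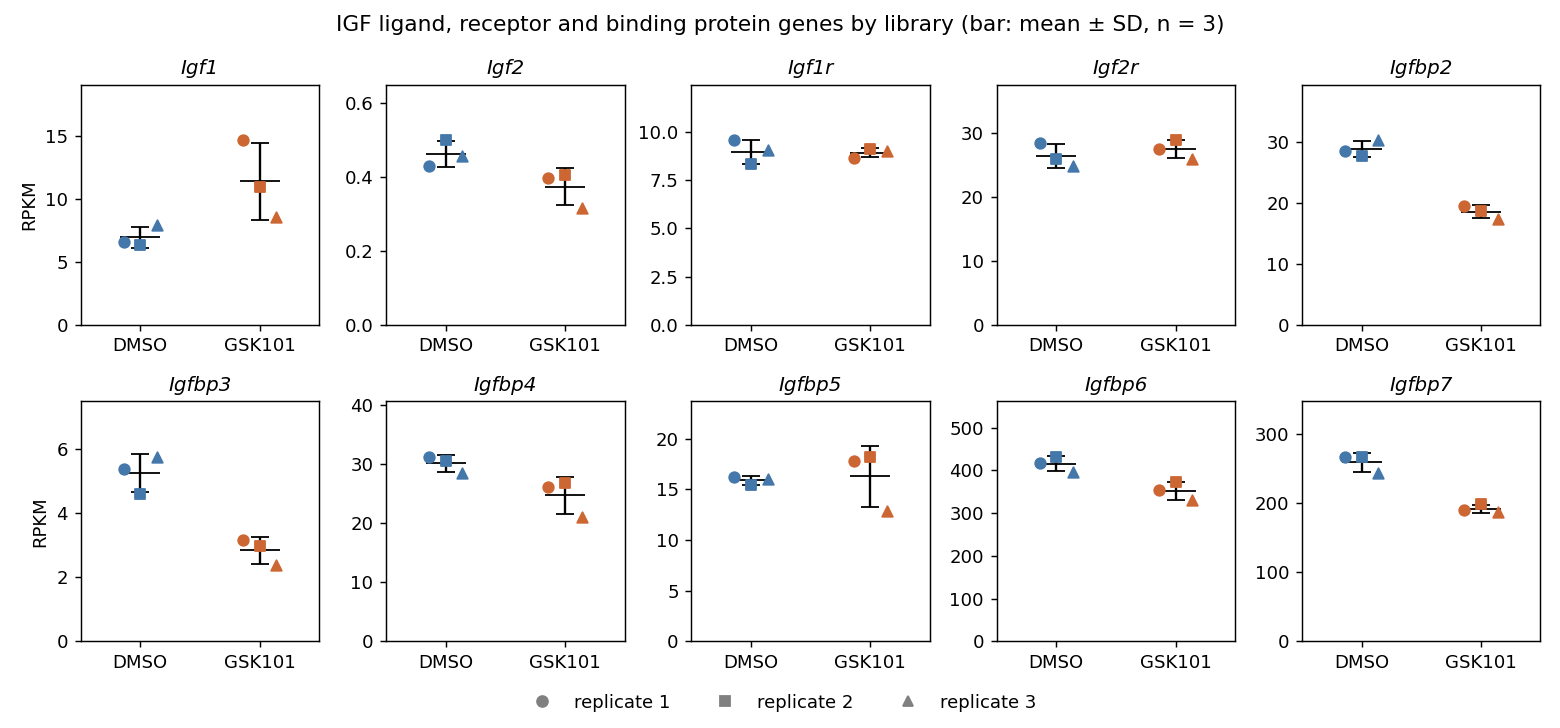
RPKM of each of the 10 IGF genes in the 3 DMSO and 3 GSK101 libraries, with the mean and SD (n = 3) as bars and the replicate number as the symbol. Every axis starts at 0. The GSK101 points of Igf1 lie above all DMSO points, those of Igfbp2, Igfbp3, Igfbp4, Igfbp6 and Igfbp7 lie below them, and those of Igf1r, Igf2r and Igfbp5 overlap them.

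The libraries held 43061102 to 45705238 counted reads, and the first principal component, with 55.5% of the variance, separated the groups. The 9 fibroblast and disc cell markers in the file covered a wide range. The highest control means were 3521 RPKM for Col3a1, 1903 for Col1a1 and 1500 for Thy1, followed by 887 for Fn1 and 265 for Postn. Lum, Dcn, Pdgfra and Prg4 were far lower, at 31.96, 16.97, 11.7 and 10.99. Markers of other cell types were mixed. Of the 9 chondrocyte markers in the file 6 stayed under 1 RPKM in every library, among them the cartilage collagen genes Col2a1 and Col9a1 at control means of 0.0164 and 0.0198, but Col11a1 stood at 110, Acan, the gene of the proteoglycan aggrecan, at 33.6 and Sox9 at 2.80. Of the 7 macrophage and leukocyte markers 4 stayed under 1, among them Ptprc at 0.493, but Lyz2, the lysozyme gene, stood at 59.8 and Cd68 at 6.01. The endothelial genes Cdh5 and Vwf were at 0.0332 and 0.0287. No marker in the file was at 0 in all 6 libraries. The share of calls that were higher was 62.9% (2570 higher and 1518 lower) and moved with the scaling between libraries, to 72.5% (2944 and 1117) with equal RPKM totals, 48.1% (1983 and 2141) with quantile normalization and 52.5% (2157 and 1950) when scaled by the median ratio.

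Among the ligands, Igf1 encodes IGF-I, which acts on the cells that secrete it and on their neighbours. Its RPKM was 6.56, 6.37 and 7.93 in the DMSO libraries and 14.7, 10.96 and 8.52 in the GSK101 libraries. All 3 treated libraries were above all 3 controls, but the lowest treated library lay close to the highest control and the treated values were spread more widely, with a coefficient of variation of 27.1% against 12.2%. The means were 6.95 ± 0.85 and 11.4 ± 3.09 (SD, n = 3), and the log2 fold change was 0.65 (SE 0.17, 95% interval 0.24 to 1.05, limma adjusted p = 0.0251). The call was lost without control replicate 1 (adjusted p = 0.0697), without control replicate 2 (0.0798) or without GSK101 replicate 2 (0.0610), and with no filter on low values (0.0708), within a range of 0.00219 to 0.0798 over the 17 alternatives. The ratio of the means was 1.40-fold without GSK101 replicate 1 and 1.84-fold without GSK101 replicate 3.

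Igf2 encodes IGF-II, a ligand known mainly for fetal growth. Its transcript was scarce, with an RPKM of 0.431, 0.4999 and 0.458 with DMSO and 0.398, 0.407 and 0.317 with GSK101, on 77 to 124 reads per library. The treated libraries were all lower, and the ratio of the means was 1.24-fold. An exact two-sided permutation test gave p = 0.1, the smallest that 3 against 3 allows, and with no filter on low values the limma adjusted p was 0.290. In the file Igf2 shares 258 bases of exon, 4.57% of its exon length, with an unnamed gene on the same strand. Per kilobase, Igf1 was the more abundant ligand in each library, by 12.7-fold to 17.3-fold with DMSO and by 26.9-fold to 36.8-fold with GSK101.

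Neither receptor gene passed the test. Igf1r, which encodes the signalling receptor, stood at 9.58, 8.35 and 9.06 with DMSO and at 8.66, 9.13 and 9.02 with GSK101. The groups overlapped, and the log2 fold change was -0.01 with a 95% interval from -0.15 to 0.14 (limma adjusted p = 0.940). Igf2r encodes the mannose 6-phosphate receptor, which takes up IGF-II and delivers it to lysosomes. It stood at 28.5, 26.0 and 24.9 with DMSO and at 27.6, 28.9 and 26.0 with GSK101, with a log2 fold change of 0.05 and an interval from -0.09 to 0.20 (adjusted p = 0.556).

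Of the binding protein genes, Igfbp3 changed most. It encodes the main IGF carrier of the blood, which is also secreted by fibroblasts and chondrocytes. Its RPKM was 5.37, 4.61 and 5.76 with DMSO and 3.15, 2.97 and 2.37 with GSK101. No treated library reached the lowest control. The log2 fold change of -0.79 (SE 0.11, interval -1.05 to -0.53, adjusted p = 0.00196) was larger in size than that of 97.5% of all tested genes, on 246 to 612 reads per library.

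Igfbp2, whose product binds both ligands and can attach to integrins, had the smallest adjusted p of the members. Its RPKM was 28.5, 27.7 and 30.3 with DMSO and 19.6, 18.7 and 17.4 with GSK101. The 2 groups were far apart relative to their spread, with means of 28.8 ± 1.33 and 18.6 ± 1.10 (SD, n = 3). It fell by 0.62 on the log2 scale (SE 0.06, interval -0.76 to -0.49, adjusted p = 0.000349), a 1.55-fold ratio of the means.

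Igfbp7 encodes a secreted protein of fibroblasts and vessel walls that binds IGFs only weakly and is found in the matrix. It stood at 267, 266 and 243 RPKM with DMSO and at 191, 198 and 187 with GSK101, again without overlap. The log2 fold change was -0.43 (SE 0.05, interval -0.55 to -0.32, adjusted p = 0.000799). In the file 113 bases of its exons, 10.25% of their length, overlap an exon of Polr2b on the opposite strand, and use of strand in counting is not stated in the sources used here.

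Igfbp6 encodes a binding protein with a preference for IGF-II and was the most abundant member. Its RPKM was 418, 432 and 398 with DMSO and 354, 372 and 331 with GSK101. All treated libraries were lower, and it fell by 0.24 on the log2 scale (SE 0.05, interval -0.37 to -0.11, adjusted p = 0.0132), a 1.18-fold ratio. Its call was lost with quantile normalization (adjusted p = 0.0750, range 0.00211 to 0.0750 over the alternatives).

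Igfbp4 encodes an inhibitor of IGF action that the protease PAPP-A cleaves. Its RPKM was 31.3, 30.7 and 28.5 with DMSO and 26.2, 26.9 and 21.1 with GSK101. The groups did not overlap, but the call was the least secure of the 5, with a fall of 0.29 on the log2 scale (SE 0.09, interval -0.50 to -0.08, adjusted p = 0.0454). It was lost in 9 of the 17 alternatives, among them those without control replicate 1 (adjusted p = 0.114), control replicate 2 (0.115), control replicate 3 (0.0578), GSK101 replicate 1 (0.0586) or GSK101 replicate 3 (0.0603). The adjusted p ran from 0.00823 to 0.115 over the 17, and the log2 fold change was -0.18 without GSK101 replicate 3.

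Igfbp5, whose product binds to matrix and to bone mineral, did not pass. Its RPKM was 16.2, 15.4 and 16.0 with DMSO and 17.8, 18.2 and 12.8 with GSK101. GSK101 replicates 1 and 2 lay above all controls and GSK101 replicate 3 lay below them. The log2 fold change was 0.02 (interval -0.26 to 0.30, adjusted p = 0.926), and 0.18 without GSK101 replicate 3 (adjusted p = 0.0515). The sign of this value was negative with quantile normalization and when libraries were scaled by the median ratio.

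**Figure D2:**
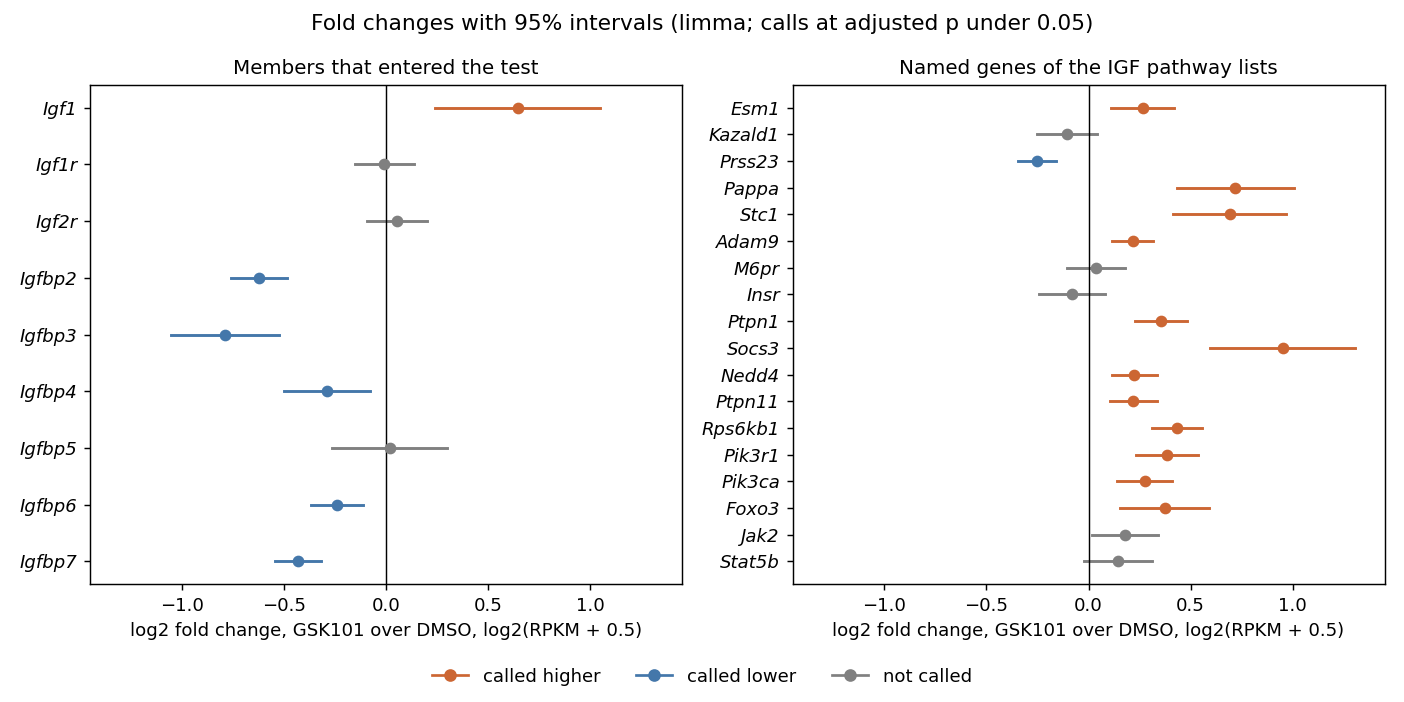
Log2 fold changes (points) with 95% intervals (lines) from limma on log2(RPKM + 0.5), for the 9 tested members on the left and for named genes of the IGF pathway lists on the right. On the left, Igf1 is called higher, 5 binding protein genes are called lower, and the intervals of Igf1r, Igf2r and Igfbp5 include 0.

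Igfbp2 and Igfbp5 are neighbours in the genome. On the Rnor_6.0 build of the file, Igfbp2 lies on the plus strand of chromosome 9 from 80118029 to 80144789 and Igfbp5 on the minus strand from 80150211 to 80167033, 5.42 kb away with no listed gene between them. The ratio of Igfbp5 to Igfbp2 in RPKM was 0.569, 0.556 and 0.527 with DMSO and 0.907, 0.973 and 0.737 with GSK101. The neighbours were thus nearer to equal levels in each treated library than in any control. This ratio was not planned, and its denominator, Igfbp2, was by itself lower in each treated library than in any control. The remaining members lie apart, with Igf1 on chromosome 7 from 28412198 to 28486609, Igfbp3 on chromosome 14 from 87457647 to 87465374 and Igfbp7 on the same chromosome from 33010300 to 33070190.

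The members covered a wide range of levels per kilobase of annotated exon. With DMSO the order was Igfbp6 (416 ± 17.3), Igfbp7 (259 ± 13.4), Igfbp4 (30.2 ± 1.44), Igfbp2 (28.8 ± 1.33), Igf2r (26.5 ± 1.85), Igfbp5 (15.9 ± 0.43), Igf1r (9.00 ± 0.62), Igf1 (6.95 ± 0.85), Igfbp3 (5.25 ± 0.58) and Igf2 (0.463 ± 0.035), in RPKM (SD, n = 3). Igfbp4 and Igfbp2 overlapped, as did Igfbp2 and Igf2r, while the other neighbours in this order did not. With GSK101 Igf2r, at 27.5 ± 1.44, came next after Igfbp7 and overlapped Igfbp4 at 24.7 ± 3.18. Igf1 came just before Igf1r, at 8.93 ± 0.24, and overlapped it, whereas each control had less Igf1 than Igf1r.

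Summed over the 6 binding protein genes, the RPKM was 767, 777 and 722 with DMSO and 611, 637 and 571 with GSK101. Igfbp6 and Igfbp7 made up most of that sum, with 55.1% and 34.3% in the controls and 58.1% and 31.7% with GSK101. Igfbp3 went from 0.697 ± 0.102% of it to 0.466 ± 0.050% (SD, n = 3). The RPKM of Igf1 per 100 RPKM of Igfbp2 to Igfbp6 was 1.31, 1.25 and 1.66 with DMSO and 3.48, 2.498 and 2.22 with GSK101. The ratio of Igf1 to Igfbp3 was 1.22, 1.38 and 1.38 with DMSO and 4.65, 3.69 and 3.59 with GSK101, so it was above 3 in each treated library and below 2 in each control. In each treated library Igf1 was higher, and Igfbp3 and the sum of Igfbp2 to Igfbp6 lower, than in any control. Both ratios therefore had to separate the groups, and they are no further evidence. They were not among the ratios planned. These are ratios of transcripts and say nothing of protein.

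**Figure D3:**
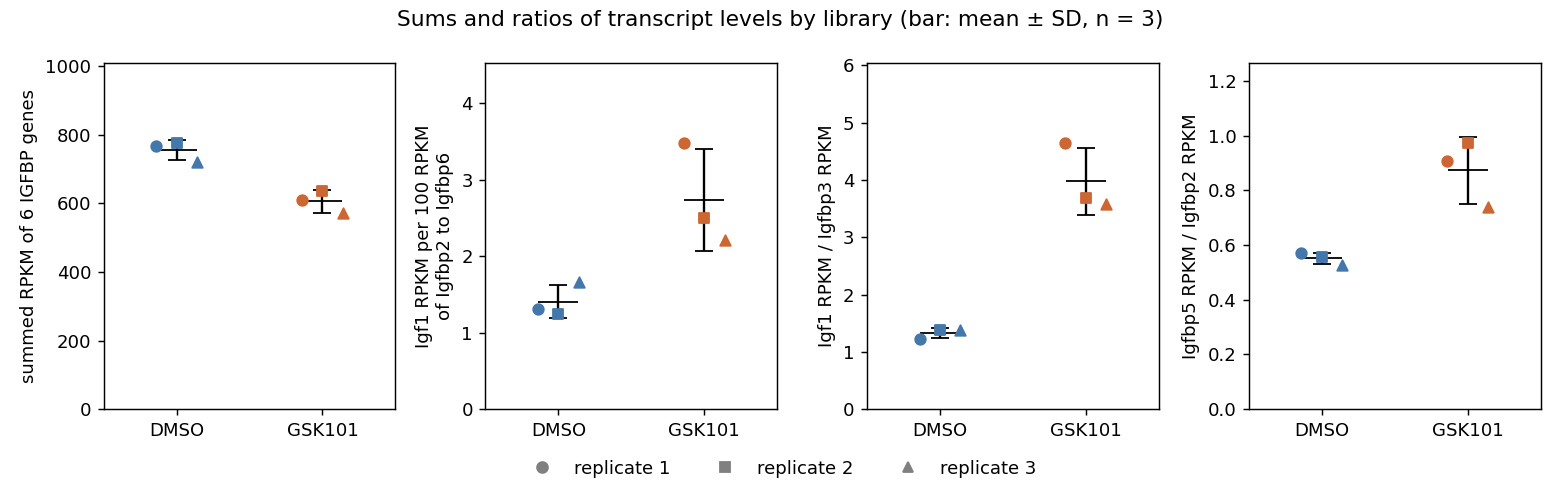
From left to right, the summed RPKM of the 6 binding protein genes, the RPKM of Igf1 per 100 RPKM of Igfbp2 to Igfbp6, the ratio of Igf1 to Igfbp3 and the ratio of Igfbp5 to Igfbp2, in each library with mean and SD (n = 3). The groups do not overlap in any of the 4 panels. For the ratios that hold Igf1 this follows from the values of their parts in each library, and the ratios shown were not planned. Relative to their mean, the treated libraries differ most in the RPKM of Igf1 per 100 RPKM of Igfbp2 to Igfbp6.

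The treated libraries differed from each other in a way that most members shared. GSK101 replicate 3 was the lowest of the 3 treated libraries for 9 of the 10 members, all but Igf1r, against 37.4% of all tested genes. The 9 include Igf2, which was not tested. For Igf1 this put replicate 3 nearest to the controls, and for the binding protein genes that fell it put it farthest from them. Leaving it out changed the fold change of Igf1 from 0.65 to 0.83 on the log2 scale and that of Igfbp3 from -0.79 to -0.69.

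Genes of other cell types and of cell division moved with treatment as well. For comparison with the counts below, 20.1% of all tested genes were higher and 11.9% were lower. Of the 6 tested pericyte and smooth muscle markers 3 fell and none rose, and their summed RPKM was 522 to 546 with DMSO and 378 to 399 with GSK101. Myh11 carried most of that sum, while the pericyte genes Rgs5, Kcnj8 and Abcc9 had control means of 0.129, 0.0415 and 0.130. Other genes of this list were expressed, with control means of 26.1 for Mcam, 3.37 for Notch3, 10.04 for Cspg4 and 96.1 for Smtn. The 3 that fell were Myh11, Mcam and Notch3, with log2 fold changes of -0.63, -0.53 and -0.49. Cspg4 (0.20), Smtn (0.03) and Des (0.26) had values of the opposite sign and did not pass. Of the 4 tested skeletal muscle markers 3 fell and none rose, with a median log2 fold change of -0.67, the lowest of the 10 marker and state lists, and a summed RPKM of 15.4 to 16.5 with DMSO and 9.60 to 10.3 with GSK101. The 3 were the muscle actin gene Acta1, at control and treated means of 12.4 and 7.69, and the myosin genes Myh4, at 2.06 and 1.09, and Myh3, at 0.596 and 0.179, while Ckm, Myod1 and Myog had control means of 0.0469, 0.0540 and 0. Des, the other tested marker of this list, had a value of the opposite sign and did not pass. Its means were 0.647 and 0.869, with a log2 fold change of 0.26 (limma adjusted p = 0.189). Myh3 reached 0.5 RPKM only in the controls, so it could enter the test only through the group where it was high. The count of 3 and the median of this list include it. All 12 tested cell cycle genes rose, with a summed RPKM of 290 to 305 and 513 to 528. Of the 9 tested fibroblast markers 5 rose and 1 fell, with overlapping sums of 7712 to 8635 and 7008 to 8245. Of those that rose, Dcn lost its call in 9 of the 17 alternatives, Fn1 in 7 and Lum in 2. Their adjusted p reached 0.102, 0.127 and 0.0540. Pdgfra and Prg4 kept their calls in all 17, and Thy1, which fell, lost its call in 1. The 1 tested endothelial marker, Kdr, rose 1.84-fold from 0.551 to 1.01 RPKM (limma adjusted p = 0.00875), and of the 3 tested macrophage and leukocyte markers Cd14 rose 1.69-fold from 1.88 to 3.18 (adjusted p = 0.00233). The summed RPKM of the leukocyte list overlapped, at 61.2 to 78.3 and 62.4 to 83.2. Of the 3 tested chondrocyte markers Col11a1 fell, from 110 to 92.1 (adjusted p = 0.0189, range 0.00248 to 0.0595, lost with equal RPKM totals and without GSK101 replicate 1 or 3), and the sums were 140 to 159 and 121 to 134. Of 2 tested Schwann cell markers S100b rose from 17.5 to 21.3 (adjusted p = 0.0402), a call lost in 9 of the 17 alternatives (range 0.00421 to 0.127), and no tested adipocyte or epithelial marker passed. The part of these shifts in the IGF results was not tested. In bulk RNA, fewer cells of a type and less RNA per cell cannot be told apart.

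The upstream sequences of the members that changed most are shown to compare their base composition. They are the 250 bases before the RefSeq start on the GRCr8 build, written 5′ to 3′ on the gene's strand, with CG dinucleotides in capitals. The stretch for Igf1 is chr7:24172282-24172531 on the plus strand, for Igfbp3 chr14:86277945-86278194 on the minus strand, for Igfbp2 chr9:81864561-81864810 on the plus strand, and for Igfbp5, the neighbour that did not pass, chr9:81914188-81914437 on the minus strand.
Igf1: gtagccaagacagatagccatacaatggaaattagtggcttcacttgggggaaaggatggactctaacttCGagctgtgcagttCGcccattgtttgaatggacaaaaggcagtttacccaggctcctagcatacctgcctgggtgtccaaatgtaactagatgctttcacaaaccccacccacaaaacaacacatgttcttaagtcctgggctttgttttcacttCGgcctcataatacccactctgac
Igfbp3: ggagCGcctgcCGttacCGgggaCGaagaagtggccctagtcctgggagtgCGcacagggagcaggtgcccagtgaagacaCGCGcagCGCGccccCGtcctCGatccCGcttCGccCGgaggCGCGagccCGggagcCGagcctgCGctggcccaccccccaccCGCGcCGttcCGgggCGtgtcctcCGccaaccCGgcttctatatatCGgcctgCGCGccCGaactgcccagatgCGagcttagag
Igfbp2: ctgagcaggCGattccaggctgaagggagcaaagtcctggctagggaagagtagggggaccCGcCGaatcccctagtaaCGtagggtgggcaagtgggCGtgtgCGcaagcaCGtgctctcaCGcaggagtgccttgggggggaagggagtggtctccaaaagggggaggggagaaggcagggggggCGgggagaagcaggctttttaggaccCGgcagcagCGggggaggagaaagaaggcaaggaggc
Igfbp5: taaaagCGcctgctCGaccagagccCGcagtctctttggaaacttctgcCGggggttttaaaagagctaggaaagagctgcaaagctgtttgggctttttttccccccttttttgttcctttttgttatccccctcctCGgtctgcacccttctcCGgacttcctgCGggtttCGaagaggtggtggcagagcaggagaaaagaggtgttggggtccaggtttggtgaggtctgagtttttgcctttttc
Igf1 held 3 CG dinucleotides, Igfbp5 8, Igfbp2 11 and Igfbp3 31, where the median of all 33469 RefSeq windows of this length was 5. All 10 members had a RefSeq window, and Igf2 had 2. Among the binding protein genes that fell, Igfbp7 held 26, Igfbp4 21 and Igfbp6 5, so a high CG count was not shared by all that fell. The AP-1 motif TGANTCA, which Fos and Jun proteins bind, and the cAMP response motif TGACGTCA were in none of the 11 member windows on either strand and in 6.34% and 1.59% of all windows. The motifs were searched separately. The TATA motif TATAAA was in the window of Igfbp4 and in 12.9% of all windows, and the GC box GGGCGG was in 5 member windows and in 30.5% of all windows. An absent motif says only that these letters are not in this stretch.

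The rest of the IGF pathway was read from 6 gene lists. Of their 78 genes 70 were in the file and 56 were tested. Of these, 16 rose (28.6%, where 20.1% of all tested genes were higher) and 3 fell (5.36%, where 11.9% were lower), and the median over the 56 was 0.12 on the log2 scale. The count that fell was 5 with median-ratio scaling, quantile normalization or limma-voom, and without control replicate 3.

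The list of binding protein proteases and their regulators had 4 of 8 tested genes higher and 2 lower, where 20.1% and 11.9% of all tested genes were. Its median log2 fold change was 0.18. Whether each listed protease cleaves a binding protein in these cells was not tested. Pappa encodes PAPP-A, the protease that cleaves IGFBP-4 when an IGF is bound. Its RPKM was 0.696, 0.670 and 0.807 with DMSO and 1.69, 1.66 and 1.22 with GSK101, without overlap, a 2.11-fold ratio of the means (log2 difference 0.72, SE 0.12, adjusted p = 0.00413). Stc1 encodes stanniocalcin, an inhibitor of PAPP-A. It went from 0.984, 0.939 and 0.710 to 1.95, 1.55 and 1.68, a 1.96-fold ratio with adjusted p = 0.00415. The protease gene and the gene of its inhibitor thus both rose, from levels near 1 RPKM. Adam9, a membrane protease gene, rose 1.16-fold from 38.9 to 45.3, and Prss23, which encodes a secreted serine protease, went from 311 to 261 RPKM, a fall of 0.25 on the log2 scale.

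The next list held receptor adaptors and attenuators and the genes of the IGF2 mRNA-binding proteins, which bind messenger RNA and are no part of the receptor's signalling. Of its 13 tested genes 5 passed, all of them higher, where 20.1% of all tested genes were higher. The median over the 13 was 0.10 on the log2 scale. By kind, 4 of 11 tested adaptors and attenuators passed and 1 of 2 tested mRNA-binding protein genes, Igf2bp2. That gene, named after its values were seen, rose 1.13-fold from 8.09 to 9.11 RPKM (adjusted p = 0.0475), and its call was lost in 11 of the 17 alternatives, all 6 that left out a library among them (range 0.0317 to 0.211). Socs3, an inducible inhibitor of cytokine receptor signalling that also acts on the insulin receptor, stood at 1.77, 1.29 and 1.57 with DMSO and at 3.96, 3.86 and 2.64 with GSK101, a 2.25-fold ratio (log2 fold change 0.95, SE 0.15, adjusted p = 0.00315). Ptpn1, which encodes a phosphatase that removes phosphate from the insulin and IGF-I receptors, rose 1.28-fold from 26.3 ± 1.79 to 33.7 ± 0.50 (adjusted p = 0.00261). Nedd4, a ubiquitin ligase gene, and Ptpn11, which encodes the phosphatase SHP2, both rose 1.17-fold, with adjusted p of 0.00929 and 0.0123. Ptpn11 lost its call without GSK101 replicate 1 (adjusted p = 0.0529, range 0.00257 to 0.0529 over the alternatives).

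Of 27 tested PI3K, AKT and mTOR components 6 rose and 1 fell, where 20.1% and 11.9% of all tested genes did. The median over the 27 was 0.12 on the log2 scale. These components carry the signal of the IGF-I receptor to protein synthesis and survival. Rps6kb1, which encodes the ribosomal S6 kinase, rose 1.36-fold from 23.3 ± 1.005 to 31.6 ± 1.48 RPKM (SD, n = 3, adjusted p = 0.00102). Pik3r1 and Pik3ca, a regulatory and a catalytic subunit of PI3 kinase, rose 1.33-fold and 1.23-fold, with adjusted p of 0.00394 and 0.00985. Foxo3, a transcription factor that AKT keeps out of the nucleus, rose 1.38-fold (adjusted p = 0.0197, range 0.00512 to 0.0727). It lost its call without control replicate 2 (0.0541), GSK101 replicate 1 (0.0727) or GSK101 replicate 2 (0.0554).

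The remaining lists had only 2 to 4 tested genes each. None of the 4 tested genes of the growth hormone and STAT5 axis passed, where 31.9% of all tested genes did. This axis drives Igf1 transcription in liver. Jak2 and Stat5b, its most abundant members, had log2 fold changes of 0.18 and 0.14 with adjusted p of 0.0903 and 0.168, and Jak2 passed with equal RPKM totals or with limma-voom (adjusted p = 0.0350 in both, range 0.0350 to 0.299). Neither of the 2 tested other receptor genes passed, with log2 fold changes of -0.08 for the insulin receptor gene Insr and 0.04 for M6pr, which encodes the cation-dependent mannose 6-phosphate receptor. Of 2 tested genes of IGFBP-related secreted proteins, Esm1, which encodes endocan, rose 1.20-fold (adjusted p = 0.0196, 0.0720 without GSK101 replicate 1 and 0.0579 without GSK101 replicate 2, range 0.00326 to 0.0720) and Kazald1 did not pass (log2 fold change -0.11, adjusted p = 0.249, 0.0442 without control replicate 3, range 0.0442 to 0.520).

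The genes most like Igfbp2 over the 6 libraries, by Pearson's r of log2(RPKM + 0.5), were Panx3 (r = 0.998), Tnfsf12 (r = 0.998) and Hes6 (r = 0.997). Panx3 encodes a pannexin channel, Tnfsf12 the cytokine TWEAK and Hes6 a transcription factor of the HES family. All 3 were lower in each treated library than in each control. Their ratios of means were 3.14-fold, 1.31-fold and 1.33-fold. Panx3 reached 0.5 RPKM only in the controls, on 16 to 81 reads per library. It could enter the test only through the group where it was high, so its fall is no independent result. The 6 points share the difference between the groups, and 423 named genes had an r over 0.95, so the likeness is a description of that difference.

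**Figure D4:**
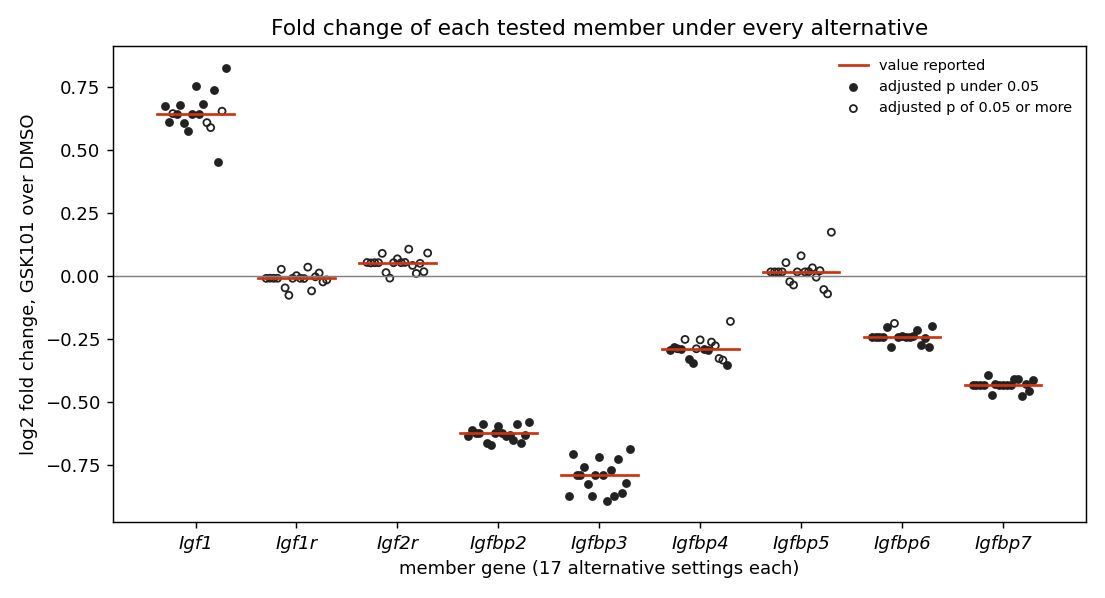
Log2 fold change of each tested member under 17 alternative settings (points, filled where the adjusted p was under 0.05), with the reported value as a line. Every point of Igfbp2, Igfbp3 and Igfbp7 is filled and below 0. Igf1 and Igfbp4 have several open points and Igfbp6 has 1, while Igf1r, Igf2r and Igfbp5 have points on both sides of 0.

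Igfbp2, Igfbp3 and Igfbp7 kept their calls in all 17 alternatives of the plot by setting, with log2 fold changes from -0.67 to -0.58, -0.89 to -0.69 and -0.47 to -0.39. The direction of Igf1, Igfbp4 and Igfbp6 was also the same in each of the 17.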

How the data were processed

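The authors deposited 1 table of RPKM values for 20675 genes in 6 libraries, with the positions, strand and summed length of each gene's exons. Per the submitters' processing notes, which give no roles, the tools were edgeR 3.12.1, featureCounts, STAR 2.5.3a, Subread 1.5.1 and Trimmomatic 0.36, on the build Rnor_6.0. Per the labels' protocols, the stranded libraries carried molecular identifiers of 8 bases, but the sources used here do not say if duplicates were collapsed. RPKM times exon length came out in whole reads (tolerance 0.01 read) for 100% of values, so the counted reads could be recovered. Replicates differed by more than counting noise (chi-square per gene 2.36 to 7.84 on reads divided by 2), and each library was counted separately. Read numbers cover counting error only.

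Genes that reached 0.5 RPKM in 3 or more libraries were tested on log2(RPKM + 0.5) with limma 3.58.1 (R 4.3.3), fitting group alone, with a mean-variance trend and Benjamini-Hochberg adjustment. A pseudocount of 0.5 understates fold changes of genes near or below that level. The script was tested on simulated data. The alternatives were other pseudocounts (0.1 and 1), filters, scalings and variance models, a replicate block, limma-voom and leaving out each library. The members and lists were chosen with earlier results of these data known. List genes were matched by symbol or, for 1 gene, an older symbol. The text names all members, up to 4 called genes of each pathway list with the smallest adjusted p (or the 2 most abundant where fewer than 2 were called) and the 3 genes most like the member with the smallest adjusted p. Upstream sequences are from RefSeq, build GRCr8.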

Additional observations from a re-analysis of the deposited data

How the results depend on the processing

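The count of members called higher, 1, was 0 with no filter on low values and ran from 0 to 1 when 1 library was left out. The 5 members called lower ran from 4 to 5 over the alternatives. The 3 pathway genes called lower were 5 with median-ratio scaling, with quantile normalization and with limma-voom, and 2 to 5 when 1 library was left out. The 16 called higher ran from 11 to 19. Values that changed sign belonged to genes that did not pass in any setting. The log2 fold change of Igf1r was 0.0282 with equal RPKM totals and 0.0028 with array weights, and -0.0577 to 0.0367 when 1 library was left out. That of Igf2r was -0.0069 with quantile normalization. That of Igfbp5 was -0.0210 with median-ratio scaling and -0.0342 with quantile normalization, and -0.0695 to 0.175 when 1 library was left out. That of M6pr was -0.0028 with median-ratio scaling and -0.0115 with quantile normalization, and -0.0131 to 0.0791 when 1 library was left out. The cause of these changes was not tested.

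Same-numbered libraries did not deviate together (correlations of 0.05, -0.06 and 0.05), so the numbers were not taken to pair them. With the replicate block, 1 member was higher and 5 were lower, and 2508 and 1437 of all genes, and no call of a member changed. Depth limited Igf2 most, at 77 to 124 reads per library.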

Other observations

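Some further genes of the IGF pathway lists passed the test and are named here after their values were seen. Adam12, which encodes a membrane protease that cleaves IGFBP-3 and IGFBP-5, rose 1.40-fold from 71.4 to 99.9 RPKM (limma adjusted p = 0.00921). Pappa2, which encodes a relative of PAPP-A that cleaves IGFBP-3 and IGFBP-5, went from 2.55 to 1.69 RPKM, a fall of 0.47 on the log2 scale (adjusted p = 0.0165), while Pappa rose. Stc2, the gene of the other stanniocalcin, did not pass, with a log2 fold change of 0.14 (adjusted p = 0.304). Htra1, a secreted protease gene, was abundant at 230 and 249 RPKM and did not pass (adjusted p = 0.155).

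In the AKT and mTOR list, Rictor, a defining subunit of mTOR complex 2, rose 1.78-fold from 0.633 to 1.13 RPKM (adjusted p = 0.0214). Its call was lost in 4 of 16 alternatives, those without control replicate 1 or 2 or GSK101 replicate 1 or 3 (range 0.000809 to 0.0701). Phlpp2, which encodes a phosphatase acting on AKT, rose 1.52-fold (adjusted p = 0.0231), and Rheb, the small GTPase gene upstream of mTOR complex 1, fell by 0.14 on the log2 scale (adjusted p = 0.0408). The call of Phlpp2 was lost in 4 of 17 alternatives, among them those without control replicate 1 or 2 or GSK101 replicate 3 (range 0.00205 to 0.0718), and that of Rheb in 8 of 17, among them all that left out a library other than control replicate 3 (range 0.0168 to 0.162).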
